A study of Mus musculus with 19 samples.

Results

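The 8 libraries of HEM mice aged 13 months are described here along a gradient of granulocyte precursor transcripts that runs through the group. They are 8 of the 19 libraries of the series, and all 8 were used. Each library was scored by the mean log2(value + 1) of 3 genes, Mpo, Prtn3 and Fcnb, where a value is a normalized count, the reads of a gene divided by 1 size factor per library. The slope of every other gene on that score was then fitted inside the group. Since measured values set the order of the libraries, the 3 score genes are described with no test.

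The series measured total RNA of brain homogenate enriched for microglia. HEM mice overexpress full-length human wild-type alpha-synuclein from the murine Thy-1 promoter, with the transgene on the X chromosome, and WT mice are the controls. All mice shared the B6D2F1/J background. Besides the 8 HEM libraries at 13 months there were 4 WT libraries at 13 months, 4 HEM libraries at 3 months and 3 WT libraries at 3 months. The Thy-1 promoter is a neuronal and T cell promoter, and is not specific to microglia. Libraries are named by the number in their title, and nothing in the labels says that each came from 1 mouse, so p-values measure the spread between these samples.

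Neutrophils are made in the bone marrow in steps. Dividing promyelocytes fill primary (azurophil) granules with myeloperoxidase and serine proteases, later myelocytes make specific granules with lactoferrin and cathelicidin, and cells that no longer divide acquire the receptors and secreted proteins of the mature neutrophil. Transcripts of the first step are therefore largely those of marrow cells, while mature neutrophils also circulate in blood. The 3 score genes and other primary granule genes were present in all 8 libraries, and whether the cells came from marrow, blood or brain was not tested. In bulk RNA, fewer cells of a type and less RNA per cell cannot be told apart.

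The score went from 9.37 in replicate 3 through 10.52, 11.34, 11.96, 12.45, 12.58 and 13.29 (replicates 7, 11, 1, 4, 8 and 12) to 13.61 in replicate 13, a range of 18.98-fold. All values below follow this order of replicates: 3, 7, 11, 1, 4, 8, 12 and 13. Mpo (ENSMUSG00000009350, GRCm38 chromosome 11, 87793581 to 87804413), which makes hypochlorous acid, measured 1666, 4167, 8026, 9621, 15496, 18674, 24658 and 44558 normalized counts. Prtn3 (ENSMUSG00000057729, chromosome 10, 79874476 to 79883174), the protease proteinase 3, measured 614, 1462, 2697, 2861, 6534, 5823, 11290.3 and 13371. Fcnb (ENSMUSG00000026835, chromosome 2, 28076378 to 28084885), a lectin of the complement system made by myeloid precursors, measured 279, 519, 806, 2305, 1736, 2107, 3625 and 3292. Mpo increased at each step of the order, while Fcnb was higher in replicate 1 than in replicates 4 and 8. The score was 7.63 to 9.70 in WT at 13 months (n = 4), 8.58 to 11.23 in HEM at 3 months (n = 4) and 10.06 to 11.32 in WT at 3 months (n = 3). The 6 highest-scoring HEM libraries at 13 months lay above all 11 libraries of the other groups, and replicate 3 lay within the range of WT at the same age.

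The main roles of the followers described below were granule and cell division. The 8 granule followers were the 7 called members of the primary granule list and Retnlg, from the mature neutrophil list. Among genes in RefSeq's promoter table (GRCm38.p6), upstream sequences are shown of the score genes and the 3 followers of largest slope in each role. They run 5′ to 3′ in the direction of the gene and stop before the first annotated transcript, which leaves no base for Prtn3. Capitals mark each match, on either strand, to any of 4 motifs: TTGCNNAA (letters bound by C/EBP factors), GAGGAA (an ETS core with its flank, as bound by PU.1), CCAAT (the box bound by NF-Y) and TTTGAA (the cell cycle homology region). Where 2 matches overlap they share their capitals.
Mpo (chr11:87793534-87793580, plus strand): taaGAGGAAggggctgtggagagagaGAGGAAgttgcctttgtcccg
Fcnb (chr2:28084886-28085128, minus strand): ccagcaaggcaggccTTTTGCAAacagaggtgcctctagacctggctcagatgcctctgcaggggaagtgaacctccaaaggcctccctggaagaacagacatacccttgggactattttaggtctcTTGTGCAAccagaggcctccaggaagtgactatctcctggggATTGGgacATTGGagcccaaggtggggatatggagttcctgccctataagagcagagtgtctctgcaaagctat
Ms4a3 (chr19:11640852-11641101, minus strand): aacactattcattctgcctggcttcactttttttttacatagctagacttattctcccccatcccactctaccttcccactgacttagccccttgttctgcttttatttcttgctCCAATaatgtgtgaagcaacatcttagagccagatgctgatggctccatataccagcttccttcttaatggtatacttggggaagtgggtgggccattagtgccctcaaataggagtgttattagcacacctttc
Elane (chr10:79886062-79886246, plus strand): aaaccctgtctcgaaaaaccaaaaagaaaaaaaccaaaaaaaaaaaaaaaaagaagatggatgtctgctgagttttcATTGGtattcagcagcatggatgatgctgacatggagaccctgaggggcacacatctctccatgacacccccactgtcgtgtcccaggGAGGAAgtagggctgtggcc
Ctsg (chr14:56102575-56102824, minus strand): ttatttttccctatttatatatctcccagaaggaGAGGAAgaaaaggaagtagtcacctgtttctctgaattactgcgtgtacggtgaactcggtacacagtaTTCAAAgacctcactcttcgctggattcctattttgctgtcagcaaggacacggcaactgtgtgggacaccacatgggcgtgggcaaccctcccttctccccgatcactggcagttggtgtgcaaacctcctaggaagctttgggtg
Kif11 (chr19:37376132-37376381, plus strand): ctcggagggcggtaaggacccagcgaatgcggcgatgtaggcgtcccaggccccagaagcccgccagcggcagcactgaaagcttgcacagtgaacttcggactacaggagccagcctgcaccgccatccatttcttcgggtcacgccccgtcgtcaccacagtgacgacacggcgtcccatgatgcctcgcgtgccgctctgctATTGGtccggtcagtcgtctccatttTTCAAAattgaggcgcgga
Cdca5 (chr19:6084847-6084982, plus strand): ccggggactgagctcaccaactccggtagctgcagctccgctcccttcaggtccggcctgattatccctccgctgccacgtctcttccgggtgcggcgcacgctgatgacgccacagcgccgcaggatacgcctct
Knl1 (chr2:119046869-119047118, plus strand): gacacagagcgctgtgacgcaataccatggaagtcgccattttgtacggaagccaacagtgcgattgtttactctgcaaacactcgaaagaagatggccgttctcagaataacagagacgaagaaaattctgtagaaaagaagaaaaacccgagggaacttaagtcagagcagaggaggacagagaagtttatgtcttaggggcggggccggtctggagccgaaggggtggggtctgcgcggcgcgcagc

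The 4 motifs were chosen after the slopes were seen and all 4 are given. TTGCNNAA stood in the 250 bases before the start in 9.57% of 32841 promoters, in 1 of the 5 granule followers that the table holds and in 0 of the 20 cell division followers. The shown bases of Mpo, Elane, Ctsg and Ms4a3 hold no match to it, and those of Fcnb hold 2. GAGGAA stood in 23.3% of all promoters, in 2 of 5 granule followers and in 3 of 20 cell division followers. CCAAT stood in 33.9% of all promoters, in 3 of 5 granule followers and in 16 of 20 cell division followers. TTTGAA stood in 16% of all promoters, in 2 of 5 granule followers and in 9 of 20 cell division followers. Kif11 holds 1 match each to CCAAT and TTTGAA, while Cdca5 and Knl1 hold none of the 4. A match is a run of letters and no measured site, and no test was made of these shares.

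Across 22632 tested genes, 40 genes (0.177%) rose with the score and 0 fell, by limma-trend with Benjamini-Hochberg adjustment at an adjusted p under 0.05. At an unadjusted p under 0.05 the slope was positive for 1230 genes (5.43%) and negative for 323 (1.43%). The smallest adjusted p of a negative slope was 0.168. On the recovered reads edgeR called 16 genes higher and 0 lower, and DESeq2 called 431 higher and 15 lower. Counts of list members given below are to be read beside these counts over all 22632 genes. A slope is the log2 change of a gene per log2 unit of score, so a slope of 1 is a change in proportion to the score. The median slope of all genes was 0.0005, and the median SE was 0.0989. Pearson's r with the score was at least 0.9 for 164 genes and at most -0.9 for 12, and genes are not independent replicates.

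How many genes were called rested on single libraries. With replicate 1 left out, 185 genes rose and 98 fell, and with replicate 4 left out 81 rose. With replicate 3, 7, 11 or 12 left out 3 genes were called in each case, with replicate 8 left out 6 and with replicate 13 left out 5. Elane, Ctsg and Ms4a3 were called in all 8 of these fits. The slopes of all 40 followers stayed positive in all 25 alternatives, and their calls held in 502 of 1000 gene-by-alternative values. All 25 used some or all of the 8 libraries that chose the followers, so the sign was largely set by that choice. The 1000 values share libraries and are not independent. With sequencing depth as a covariate 8 genes were called, 7 of them followers. Depth had a Pearson's r of -0.46 with the score (exact permutation p = 0.248, Spearman's rho -0.31, exact permutation p = 0.462, n = 8 libraries, adjusted p = 0.486 and 0.626 over 5 technical measures), and r was -0.29 without the 2 libraries farthest from the median score, replicates 3 and 7. Without replicate 3 alone it was -0.0023. Beyond that covariate fit, the part of depth in the result was not tested.

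**Figure D1:**
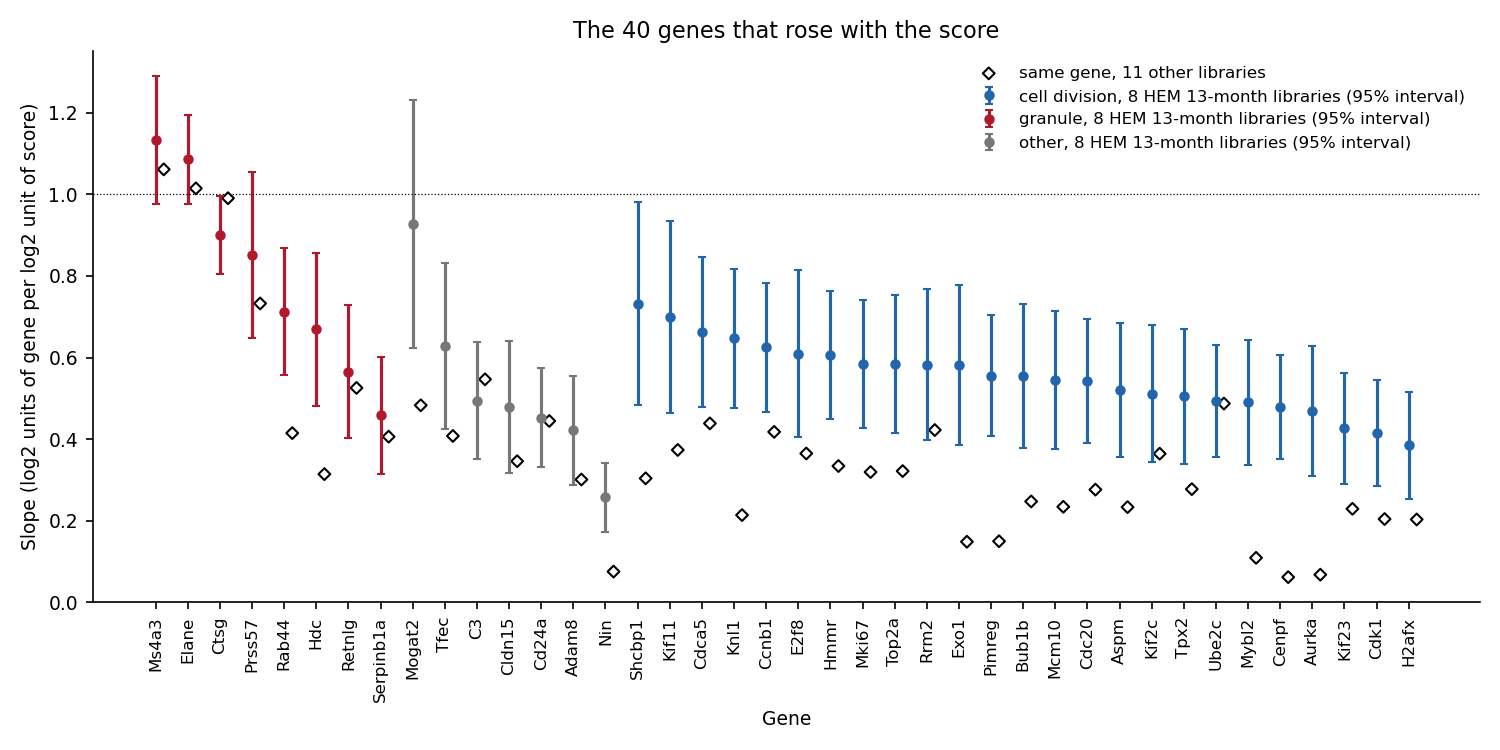
Slope of each of the 40 genes that rose with the score (vertical axis, log2 units of the gene per log2 unit of score) in the 8 HEM libraries at 13 months, as points with 95% intervals coloured by role, and in the 11 other libraries, as open diamonds. Ms4a3, Elane and Ctsg lie near the dotted line at 1, the 25 cell division genes lie between 0.38 and 0.73, and every diamond lies above 0.

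Elane, Ctsg and Ms4a3, all on the primary granule list, had the smallest p-values of the 40 followers. Elane (ENSMUSG00000020125, chromosome 10, 79886247 to 79888215), neutrophil elastase, whose gene starts just downstream of Prtn3, measured 737, 1441, 3638, 4242, 6594, 8887, 12395 and 18193. It increased at every step of the order, and its slope was 1.09 ± 0.05 (SE, adjusted p = 4.15e-05). Ctsg (ENSMUSG00000040314, chromosome 14, 56099881 to 56102574), the granule protease cathepsin G, measured 361, 835, 1234, 1586, 2335, 2696, 4458 and 5471. It too increased at every step, with a slope of 0.90 ± 0.04 (SE, adjusted p = 4.15e-05). Ms4a3 (ENSMUSG00000024681, chromosome 19, 11629496 to 11640851), a membrane protein of granulocyte and monocyte progenitors, measured 69.3, 268, 391, 571, 1045, 1178, 1625 and 2286, with a slope of 1.13 ± 0.07 (SE, adjusted p = 0.000296). The 95% intervals of Elane and Ms4a3 included 1, while that of Ctsg, 0.804 to 0.996, ended just below it.

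Of the 16 genes on the primary granule list, edgeR called 5 higher and DESeq2 11. By limma-trend 7 rose, 11 had a positive slope at an unadjusted p under 0.05 and 0 a negative one. The median slope was 0.50. The other 4 called members were Prss57, a serine protease of the same granules (slope 0.85 ± 0.09, adjusted p = 0.0207), Rab44, a GTPase of granule release (slope 0.71 ± 0.07, adjusted p = 0.0133), Hdc, which makes histamine (slope 0.67 ± 0.08, adjusted p = 0.0263), and Serpinb1a, an inhibitor of neutrophil proteases (slope 0.46 ± 0.06, adjusted p = 0.0434). Prss57 measured 55.5, 91.2, 119, 167, 302, 273, 574 and 629, and Hdc measured 784, 1629.9, 2059, 3008, 5723, 2658, 4665 and 6386. Hdc was out of order in replicate 4, where it was higher than in replicates 8 and 12. Cebpe, the factor that drives the step from promyelocyte to myelocyte, measured 221, 694, 771, 2096, 998, 1412, 2165 and 1780.4, and missed the call (slope 0.69 ± 0.12, adjusted p = 0.0655). Gfi1, a transcriptional repressor needed for neutrophil development, had its second highest value in replicate 12 and a value in replicate 3 above those of 5 other libraries (slope 0.22 ± 0.15, adjusted p = 0.833). Cebpa, which microglia also express, was without a slope that could be told from 0 (slope -0.04 ± 0.11, adjusted p = 0.96).

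**Figure D2:**
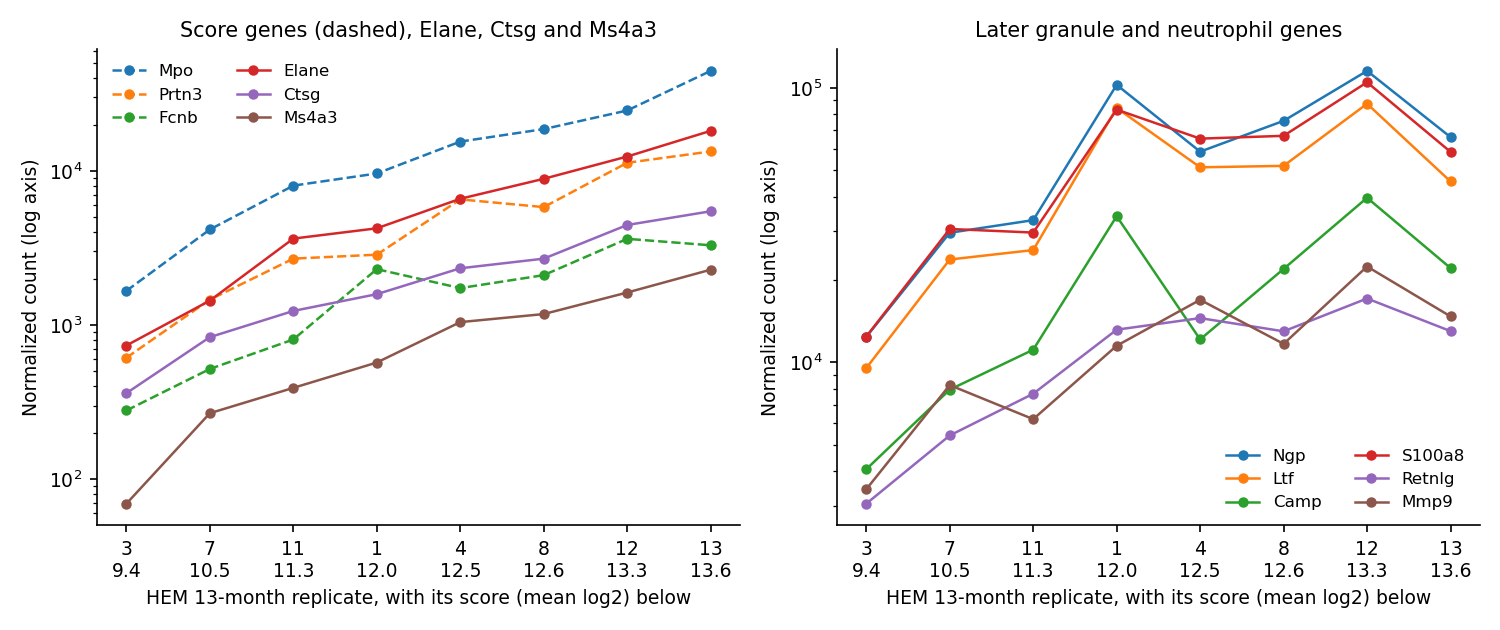
Normalized counts (log axis) of the score genes with Elane, Ctsg and Ms4a3 (left) and of later granule and neutrophil genes (right) in the 8 HEM libraries at 13 months, ordered by score, with the replicate number and score under each position. Elane, Ctsg and Ms4a3 climb at each step, whereas Ngp, Ltf, Camp and S100a8 peak in replicates 1 and 12.

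Most specific granule genes had positive slopes, 15 of 16, and the ones described here ran out of order in single libraries. By limma-trend or edgeR 0 members were called and by DESeq2 13, 14 had a positive slope at an unadjusted p under 0.05, and the median slope was 0.65. Ltf, lactoferrin, measured 9509, 23662, 25612, 84463, 51307, 51938, 87472 and 45556, with a slope of 0.64 ± 0.13 (SE, adjusted p = 0.123). Camp, the cathelicidin precursor, measured 4068, 7935, 11093, 34037, 12096, 21862, 39733 and 22016, with a slope of 0.66 ± 0.14 (SE, adjusted p = 0.114). Both were highest in replicates 12 and 1 and lower in replicate 13, which had the highest score. Chil3, a chitinase-like protein, went from 845 in replicate 3 to 37592 in replicate 12, and replicate 4 held 6135, with a slope of 1.05 ± 0.24 (SE, adjusted p = 0.168). Among 23 mature neutrophil genes, edgeR called 0 and DESeq2 16 higher. By limma-trend 1 rose, 18 had a positive slope at an unadjusted p under 0.05, and the median was 0.49. The called gene was Retnlg, a secreted resistin-like protein, at 3046, 5400.4, 7667, 13127, 14467, 12947, 17055 and 12969.7 (slope 0.57 ± 0.07, adjusted p = 0.0296). S100a8, a calprotectin subunit, measured 12392, 30575, 29667, 83277, 65276, 66827, 104774 and 58401 and missed the call (slope 0.62 ± 0.11, adjusted p = 0.0732).

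Cell division genes made up 25 of the 40 followers. This grouping by role was made after the calls were seen. Of the 30 genes on the mitosis and replication list, edgeR called 6 higher and DESeq2 27. By limma-trend 12 rose, 29 had a positive slope at an unadjusted p under 0.05, and the median slope was 0.49. Mki67, the proliferation marker, measured 2545, 3761, 4657, 8715, 6126, 6948, 13665 and 14706 (slope 0.58 ± 0.07, adjusted p = 0.0252). Ccnb1, the cyclin of mitotic entry, measured 252, 341, 637, 865, 706, 828.9, 1513 and 1545 (slope 0.62 ± 0.07, adjusted p = 0.0252), and its partner kinase Cdk1 measured 543, 738, 862, 1096, 973, 1166, 1847 and 1912 (slope 0.41 ± 0.06, adjusted p = 0.0434). These 3 genes were highest in replicates 12 and 13 and lowest in replicate 3, and each was higher in replicate 1 than in replicate 4 against the order of the score. Shcbp1, a spindle midbody protein, had the largest slope of the group, at 0.73 ± 0.11, adjusted p = 0.0488. Kif11, the motor that separates spindle poles, measured 176, 477, 803, 1072, 609, 955, 1479 and 1972 (slope 0.70 ± 0.10, adjusted p = 0.0488), Cdca5, a cohesin regulator, 114, 199, 323, 458, 329.9, 474, 788 and 879.9 (slope 0.66 ± 0.08, adjusted p = 0.0263), and Knl1, a kinetochore scaffold, 165, 281, 361, 536, 459, 571, 1082 and 1202 (slope 0.65 ± 0.08, adjusted p = 0.0252). The slopes of the 25 genes, 0.38 to 0.73, were below those of Elane, Ctsg and Ms4a3.

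The other 7 followers were Cd24a, C3, Adam8, Tfec, Mogat2, Nin and Cldn15. Cd24a, a surface glycoprotein of immature blood cells, measured 5683, 6661, 9178, 15045, 11329, 12879.9, 19076 and 20889 (slope 0.45 ± 0.05, adjusted p = 0.0252). C3, the central complement component, measured 3725, 4825, 4959, 10507, 8833, 8908, 15356 and 13797 (slope 0.49 ± 0.06, adjusted p = 0.0298). C3 was highest in replicate 12 and about level in replicates 4 and 8. Nin, a centrosome protein, had the smallest slope of the 40, 0.26 ± 0.04, adjusted p = 0.0467, and Mogat2, an acyltransferase of triglyceride synthesis, a wide 95% interval, 0.62 to 1.23.

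The same slopes were then measured in the 11 libraries outside the group, with a mean for each of the 3 other groups. The followers were not called from these 11. The group, the score and the lists were chosen with earlier results of these data known. There 17 genes rose (0.0751%) and 0 fell by limma-trend. At an unadjusted p under 0.05, 863 slopes (3.81%) were positive and 342 (1.51%) negative, and edgeR called 13 higher and DESeq2 158 higher and 6 lower. All 40 followers had a positive slope there, against 50.3% of all genes, and 27 had one at an unadjusted p under 0.05. Elane, Ctsg and Ms4a3 were called in both, which is 7.5% of the 40 and 17.6% of the 17, with slopes of 1.01, 0.99 and 1.06 in the 11 libraries. The remaining 14 included Lcn2, Hp, Camp, Ngp, Cd177, S100a8 and S100a9, genes of specific granules and mature neutrophils, and all 17 had a positive slope with an unadjusted p under 0.05 in HEM at 13 months. The count of 17 fell to 0 without WT replicate 9 at 13 months or HEM replicate 7 at 3 months, to 3 without WT replicate 6 at 13 months, and to 6, 7, 8 and 10 without HEM replicate 3 at 3 months, WT replicate 7 at 13 months and WT replicates 5 and 3 at 3 months.

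The 25 cell division followers had a median slope of 0.28 in the 11 libraries against 0.55 in HEM at 13 months, and the 8 granule followers 0.63 against 0.78. Since the followers were chosen by their slopes in HEM at 13 months, the larger values there are partly set by that choice. The difference of slopes itself was called for 0 of 22632 genes by limma-trend, edgeR and DESeq2 alike (0.0%), with 1167 genes at an unadjusted p under 0.05 in limma-trend and a smallest adjusted p of 0.865.

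Eosinophil genes were the list with the second largest median slope, 0.62. Of 10 genes 0 were called by limma-trend or edgeR and 6 by DESeq2, against 431 of all 22632 genes by DESeq2. At an unadjusted p under 0.05, 7 had a positive slope, against 5.43% of all genes. Epx, eosinophil peroxidase, measured 451, 738, 1839.7, 2004, 1083, 3132, 4187 and 7764 (slope 0.86 ± 0.13, adjusted p = 0.0515). Prg2, the major basic protein of eosinophil granules, measured 1458, 2887, 5668, 6886, 2934, 9742, 14074 and 26010.2 (slope 0.84 ± 0.15, adjusted p = 0.0704). Both were highest in replicate 13 and dipped in replicate 4. The median slope of the list in the 11 other libraries was -0.04, and Epx had a slope of -0.56 there, a difference that was not called. Basophil and mast cell genes had a median slope of 0.19 with 0 of 10 called by limma-trend, edgeR or DESeq2. At an unadjusted p under 0.05, 2 of the 10 were positive, against 5.43% of all genes. Mcpt8, a basophil protease, was highest in replicate 1, at 2733, and lowest in replicate 3, at 312.

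Among red cell genes, regulators and membrane proteins of precursors had larger slopes than the globins and Alas2, a contrast that was seen in the values and not tested. Of 28 genes 0 were called by limma-trend or edgeR and 11 by DESeq2, and the median slope was 0.20. At an unadjusted p under 0.05, 14 had a positive slope, against 5.43% of all genes. Klf1, a regulator of erythroid precursors, measured 84.9, 151, 415, 813, 283, 495, 743 and 965 (slope 0.77 ± 0.14, adjusted p = 0.0812), and Car1, an early erythroid carbonic anhydrase, 122, 243, 733, 1349, 457, 1327, 1059 and 1879 (slope 0.84 ± 0.16, adjusted p = 0.0799). Rhag, the Rh-associated glycoprotein, measured 90.1, 92.6, 349.7, 588, 294, 296, 726 and 747 (slope 0.74 ± 0.14, adjusted p = 0.0898). These 3 genes were lowest in replicates 3 and 7 and highest in replicate 13. Hba-a1, an alpha globin, measured 342065, 146934, 575089, 197313, 532989, 281676, 291734 and 197684 (slope -0.02 ± 0.17, adjusted p = 0.988), and Alas2, the first enzyme of erythroid heme synthesis, 17323, 8151, 19595, 10840.5, 21663, 13127, 12713 and 6471 (slope -0.13 ± 0.14, adjusted p = 0.902). Their highest values were in replicates 11 and 4, and reads of Hba-a1 may be shared with its near-identical copy Hba-a2. In the 11 other libraries the list's median slope was 0.26, with Hba-a1 at 0.27 and Alas2 at 0.23. Klf1, Car1 and Rhag had slopes of 0.46, 0.59 and 0.63 there.

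**Figure D3:**
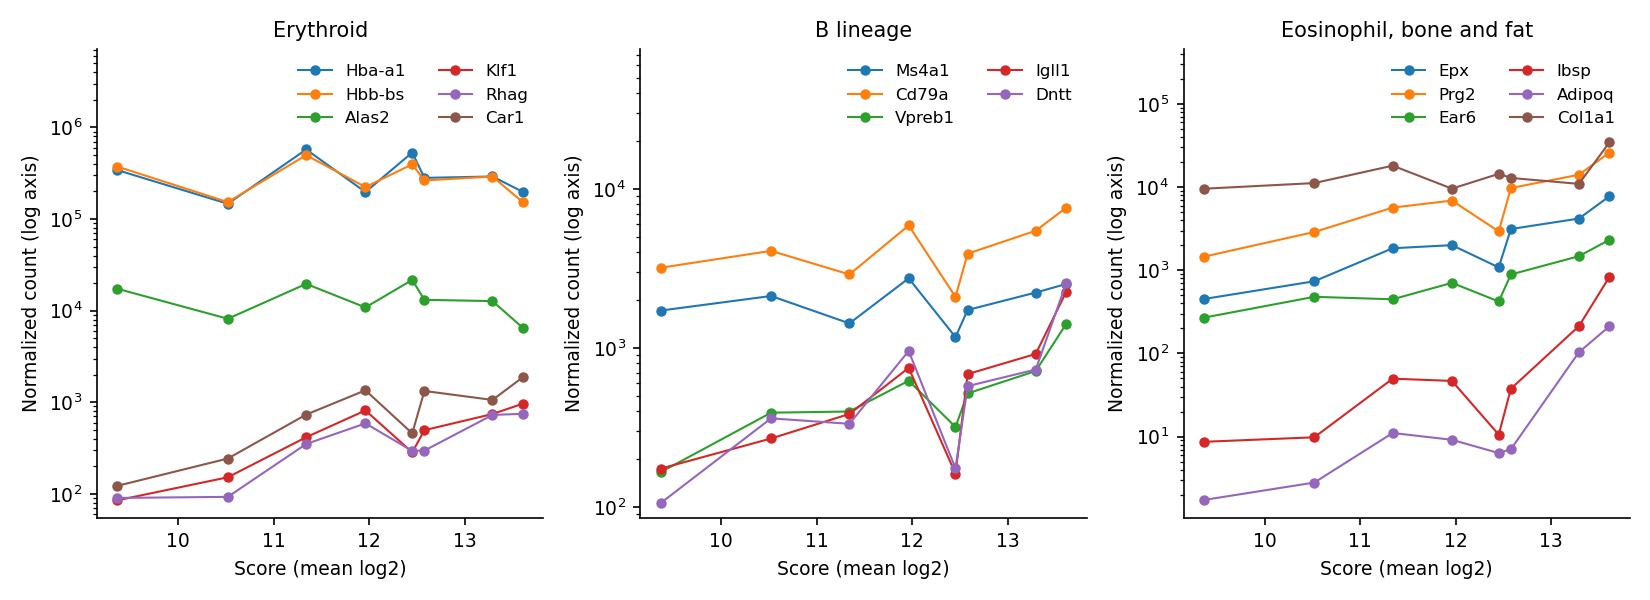
Normalized counts (log axis) of erythroid genes, B lineage genes, and eosinophil, bone and fat genes against the score (mean log2) in the 8 HEM libraries at 13 months, 1 point per library. Klf1, Rhag and Car1 are highest in replicate 13 while Hba-a1, Hbb-bs and Alas2 are not, replicate 4 dips in many B lineage and eosinophil genes, and Ibsp and Adipoq are highest in replicates 12 and 13.

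Among B lineage genes, the precursor genes Vpreb1, Igll1 and Dntt had larger slopes than Ms4a1, again without a test of the contrast. The list had 0 of 18 called by limma-trend or edgeR, 3 called by DESeq2 and a median slope of 0.20. At an unadjusted p under 0.05, 4 were positive, against 5.43% of all genes. Those 4 included Vpreb1 and Igll1, which form the surrogate light chain of pre-B cells, and Dntt, the polymerase of antigen receptor joining. Igll1 measured 174, 269, 384, 749, 162, 684, 916 and 2255 (slope 0.68 ± 0.21, adjusted p = 0.419), and Dntt 106, 360.5, 333, 957, 174, 575, 731 and 2554 (slope 0.75 ± 0.23, adjusted p = 0.399). Both were highest in replicate 13 and lower in replicate 4 than in replicate 7. Ms4a1, of mature B cells, measured 1717, 2121, 1426, 2741, 1169.5, 1732, 2229.8 and 2524 (slope 0.07 ± 0.10, adjusted p = 0.931). In the 11 other libraries the list's median slope was 0.49. There 14 of 18 were positive at an unadjusted p under 0.05, against 3.81% of all genes. There Ms4a1 had a slope of 0.44, below Igll1 at 0.69 and Dntt at 0.63 but above Vpreb1 at 0.10.

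Among bone and fat transcripts, Ibsp and Adipoq were highest in replicates 12 and 13 and Bglap in replicate 13, the highest-scoring libraries. Of 19 bone genes 0 were called by limma-trend or edgeR and 2 by DESeq2. At an unadjusted p under 0.05, 3 had a positive slope, against 5.43% of all genes. The median slope of the list was 0.06, and 6 of the 19 slopes were negative, the lowest at -0.42. Ibsp, bone sialoprotein, measured 8.66, 9.82, 49.8, 46.8, 10.6, 37.6, 213 and 835 (slope 1.23 ± 0.35, adjusted p = 0.33). Bglap, osteocalcin, measured 14.7, 0, 23.5, 7.33, 6.34, 2.35, 8.53 and 426, so that replicate 13 held most of it. Adipoq, the fat cell hormone adiponectin, measured 1.73, 2.81, 11.1, 9.17, 6.34, 7.05, 104 and 212 (slope 1.29 ± 0.33, adjusted p = 0.229). Col1a1, a collagen of bone and of brain coverings alike, was highest in replicate 13 at 34597 and lay between 9559.7 and 18102 elsewhere. Of 20 stem and progenitor genes 0 were called by limma-trend or edgeR and 2 by DESeq2. The median slope was 0.03, and 8 slopes were negative. Myb (slope 0.48 ± 0.10, adjusted p = 0.104) and Hoxa9 (slope 0.55 ± 0.15, adjusted p = 0.322) were the 2 with a positive slope at an unadjusted p under 0.05, against 5.43% of all genes. Of 18 monocyte genes 0 were called by limma-trend or edgeR and 4 by DESeq2, and the median slope was 0.19. At an unadjusted p under 0.05, 7 had a positive slope, against the same 5.43%. Ly6c2, of inflammatory monocytes, measured 4149.9, 3187, 4030.4, 7698, 5319, 5686, 8820.4 and 10681 (slope 0.35 ± 0.08, adjusted p = 0.189). Without replicates 1 and 13 together, 12 of the 40 followers were called. All 40 slopes were positive, a sign largely set by how the followers were chosen.

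Heat shock genes and genes of ependymal cells and their cilia, which line the brain's ventricles, had positive slopes too. Of 12 heat shock genes 0 were called by limma-trend or edgeR and 1 by DESeq2. All 12 slopes were above 0, 5 at an unadjusted p under 0.05 against 5.43% of all genes, and the median was 0.23. Hspb1, a small chaperone, measured 3484, 4044, 4000.0, 7902, 9035, 10125, 7154 and 12341 (slope 0.43 ± 0.08, adjusted p = 0.0794). The list's mean log2 level was highest in replicate 13, at 14.69, then in replicate 1, at 13.95, and lowest in replicate 3, at 12.70. Of 14 ependyma and cilium genes 0 were called by limma-trend, edgeR or DESeq2. All 14 slopes were above 0, 4 at an unadjusted p under 0.05 against the same 5.43%, and the median was 0.22. Foxj1, the regulator of motile cilia, measured 4620.4, 7101, 5964, 3938, 9193, 6123, 7436 and 14175 (slope 0.25 ± 0.11, adjusted p = 0.726). That list was highest in replicate 13, at 11.02, then in replicate 4, at 10.42, and lowest in replicate 1, at 9.15. In the 11 other libraries the medians were -0.10 for heat shock and 0.09 for ependyma and cilium, and the part of either in the slopes of the followers was not tested.

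**Figure D4:**
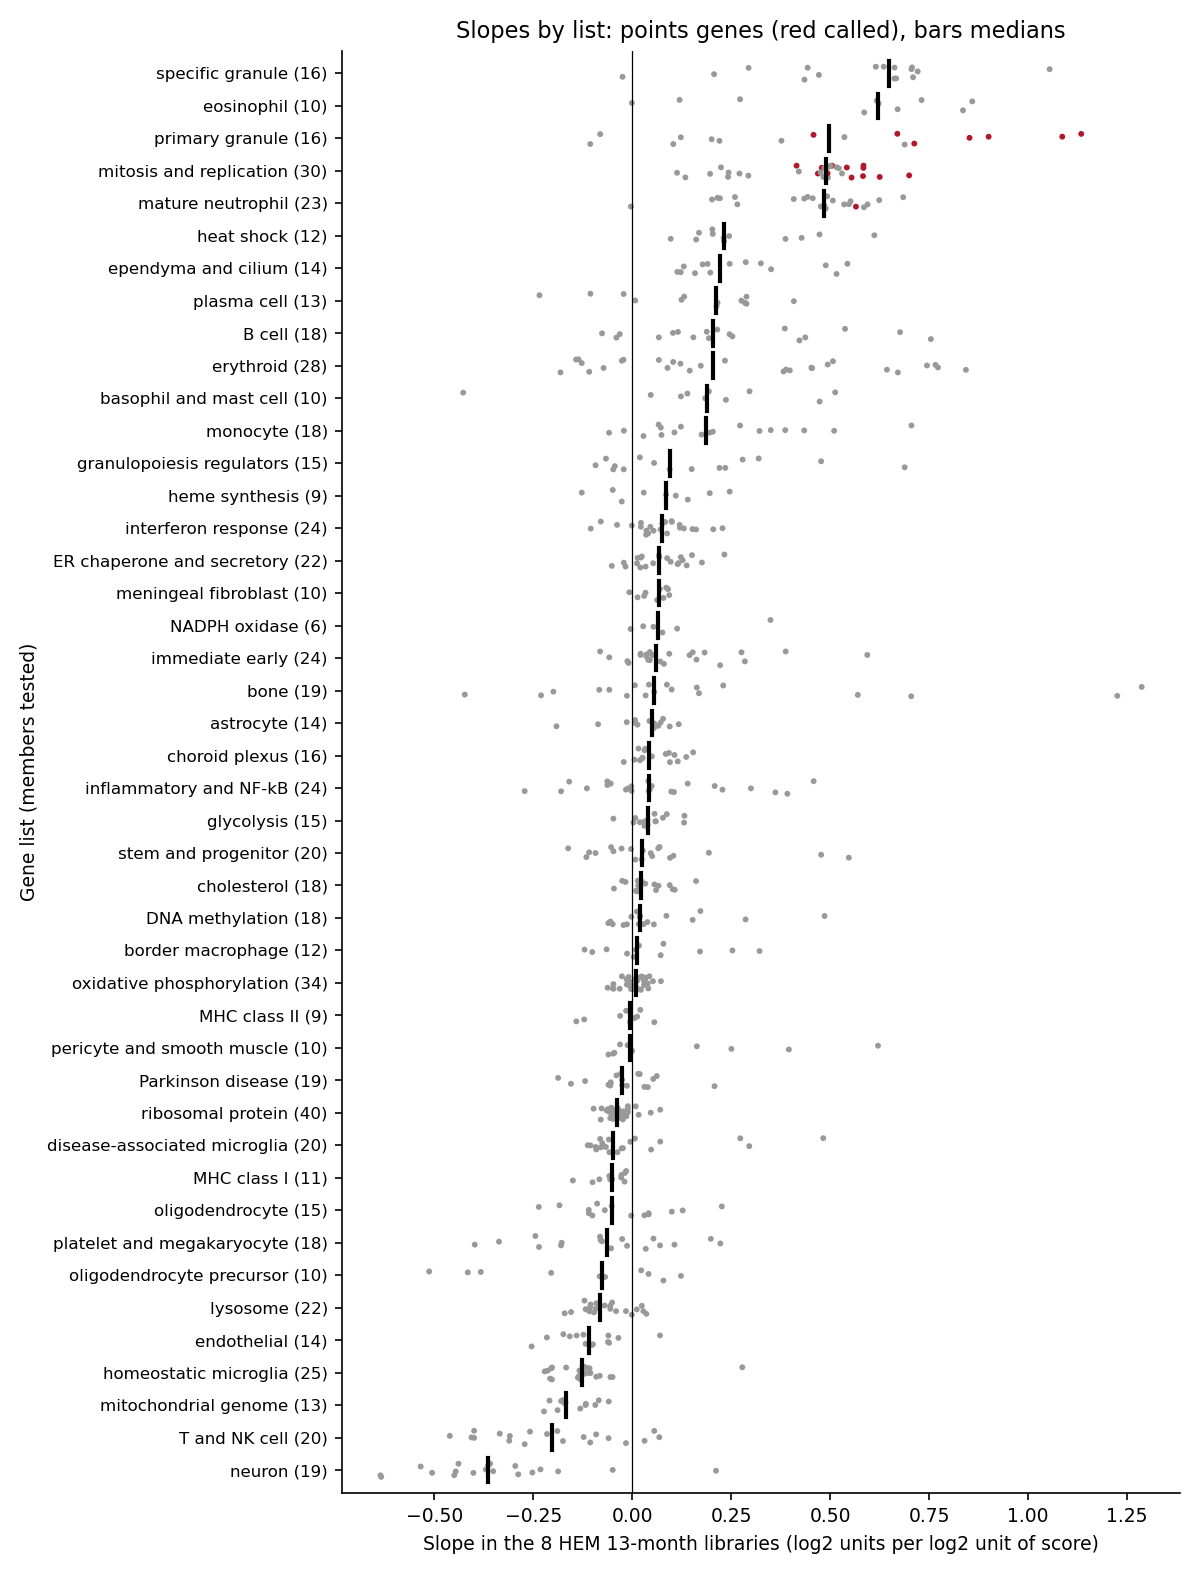
Slope of each tested member of the gene lists (points, red where called) and the median of each list (bars) in the 8 HEM libraries at 13 months, in log2 units per log2 unit of score, with the number of members tested in parentheses. Granule, eosinophil, mitosis and mature neutrophil lists lie highest, with medians of 0.49 to 0.65, heat shock and ependyma and cilium lists come next, oxidative phosphorylation and ribosomal genes cluster at 0, and neuron genes lie lowest.

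By limma-trend 0 genes opposed the score in the 8 libraries, and edgeR called 0 and DESeq2 15. A negative slope at an unadjusted p under 0.05 was found for 323 of all 22632 genes (1.43%). Without replicate 1 limma-trend called 98 lower, and without replicates 1 and 13 it called 6. The lists with the lowest medians were neuron, at -0.36, and T and NK cell, at -0.20. At an unadjusted p under 0.05, 5 of 19 and 4 of 20 members were negative, against 1.43% of all genes. Snap25, a synaptic vesicle fusion protein, measured 9075, 7575, 5386, 22781, 4461, 4302, 2571 and 1661 (slope -0.51 ± 0.21, adjusted p = 0.678). Its highest value was in replicate 1, in the middle of the order. Trac, the constant region of the T cell receptor alpha chain, measured 3623, 1296, 729.8, 1001, 576, 533, 964 and 1128 (slope -0.41 ± 0.15, adjusted p = 0.621), and replicate 3 stood above the other 7. Without replicate 3 the slope of Trac was -0.07. The 4 negative T and NK cell genes also included Thy1 (slope -0.46 ± 0.18, adjusted p = 0.655). Its promoter is a neuronal and T cell one, and the part of either cell type in its slope was not tested. In the 11 other libraries the medians of the neuron and the T and NK cell lists were 0.23 and 0.20. Homeostatic microglia genes had a median of -0.13, with 3 of 25 negative at an unadjusted p under 0.05. Cst3, cystatin C, measured 1080696, 822439.6, 1249322, 713611, 904267, 763893, 466397 and 689822 (slope -0.20 ± 0.09, adjusted p = 0.726), and P2ry12, the purine receptor of resting microglia, 87652, 60366, 117112, 44158, 71284, 70721, 35724 and 55553 (slope -0.20 ± 0.11, adjusted p = 0.797). Both were highest in replicate 11 and lowest in replicate 12, and both were abundant in each library.

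**Figure D5:**
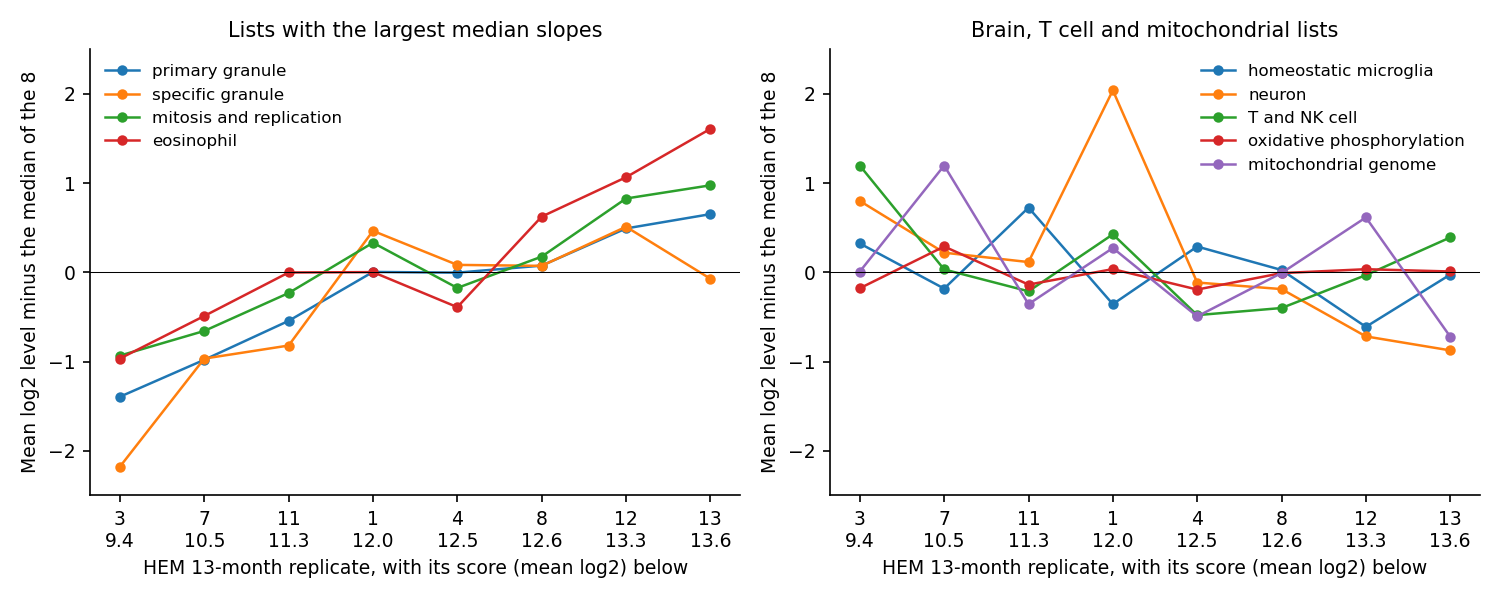
Mean log2 level of 9 gene lists, minus the median of the 8 libraries, by replicate in the order of the score. Primary granule, mitosis and eosinophil lists are lowest in replicate 3 and highest in replicate 13, mitosis and eosinophil lists dip in replicate 4, the neuron list peaks in replicate 1 and the T and NK cell list in replicate 3, and oxidative phosphorylation stays within a narrow band.

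Flat genes were defined by the interval of the slope, since a p that misses a threshold does not show a flat gene. A flat gene can still have a small slope. Alas1, of heme synthesis, was flat with a 95% interval of 0.023 to 0.197. The 95% interval lay within -0.2 to 0.2 for 7472 genes (33.0%). Of 34 nuclear genes of oxidative phosphorylation 33 were flat, and so were 36 of 40 ribosomal protein genes. The 13 genes of the mitochondrial genome had 0 flat members, 13 negative slopes and a median slope of -0.17. Among them 0 were called, and 0 had a negative slope at an unadjusted p under 0.05. Their median slope in the 11 other libraries was 0.06. Atp5b, the catalytic subunit of ATP synthase, measured 55012, 90539, 64730.4, 70763, 63961, 68916, 73269.7 and 73513 (slope 0.04 ± 0.06, adjusted p = 0.93). The 19 Parkinson disease genes had 14 flat members, and the 18 genes of cholesterol synthesis and uptake 13. MHC class II genes had 6 flat members of 9, and MHC class I genes 5 of 11. The slope was negative for 11 of 11 MHC class I genes and for 36 of 40 ribosomal protein genes. Disease-associated microglia genes had 7 flat of 20, and the interferon response 6 of 24. Genes of low level have wide intervals, so a list with few flat members need not follow the score. With bounds of 0.1 the count of flat genes was 1150, and with bounds of 0.3 it was 10940. The count also rested on the libraries: it was 4343 without replicate 3 and 1086 without replicates 3 and 7, the 2 farthest from the median score.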

How the data were processed

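Total RNA of microglia-enriched brain homogenate was sequenced in 19 libraries. RNA came from an AllPrep kit and went into NEBNext Ultra II libraries, per the labels' protocols. The tools were Trimmomatic, HISAT2, featureCounts and DESeq2 with the build mm10, per the submitters' processing notes, and versions, annotation and strand setting are not given in the sources used here. Each deposited value is a signal: reads per gene over a size factor of the library, set by the authors. That reading rests on the numbers themselves: 100% were whole multiples of their library's step at a tolerance of 0.01. Depth was 63.3 to 95.8 M reads in genes for HEM at 13 months and 74.7 to 124.5 M in the other groups. Symbols and positions came from GENCODE M21 (GRCm38), which named 99.3% of 49671 genes.

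As the deposited units are not counts, the main test was robust limma-trend from limma 3.58.1 under R 4.3.3, with a pseudocount of 1 before log2. It was two-sided, with Benjamini-Hochberg adjustment over the 22632 genes that reached 10 in 3 or more of the 8 libraries, leaving out the score genes. On counts simulated for the 22632 genes and 8 libraries it called 30.5% of genes with a slope of 0.3, 72.9% at 0.5 and 100% at 1, with 6 false calls. Slopes were planted only in genes of higher mean, 82, 59 and 59 of them, and counts were drawn independently with a spread set by the mean. Spread particular to a gene or shared within a library was not simulated, so these shares may not hold for the measured genes. edgeR 4.0.16 and DESeq2 1.42.0 were run on the recovered reads as alternatives, beside other pseudocounts, filters, scalings, covariates and scores and each library left out. Leaving out replicates 1 and 13 together, and the count of flat genes under settings other than the bounds, were added after the data were seen. The group, the score and the gene lists were chosen with earlier results of these data known.

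By rule, the genes to name began with the score genes. Next came the called genes of mean log2 at least 6 with the 10 largest slopes and the 10 smallest p. Last came up to 3 called members of each list, or 2 flat or highest members where none was called. In several lists these last are not described above, and other members, many of larger slope, are. The members left out include Tcn2 (specific granule, slope -0.02), Fech (erythroid, -0.03), Fn1 and Itgal (monocyte, 0.03 and -0.02) and Lepr (bone, -0.01). Adgrg1 and Npm1 (stem and progenitor, -0.05 and 0.02) and Gata2 and Il3ra (basophil and mast cell, 0.05 and 0.14) were also left out. The other genes named, the split of followers by role, and the 4 promoter motifs were chosen after values were seen. The display of promoters was set by role and slope after an earlier version, drawn up once the matches were known, had marked only some motifs. The values of 1 gene are not reported here.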

Additional observations from a re-analysis of the deposited data

Results flagged for a closer look

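Of 164 sets of 8 HEM values at 13 months checked, 8 held 1 library far from the rest, where chance flags about 1 in 20. Each is given with the gap of that library to its nearest neighbour as a share of the whole range. Replicate 3 was low in Plbd1, a neutrophil phospholipase, at a log2 level of 10.64 against 11.74 to 12.68 (gap 0.54). The same library was high in the T cell genes Trac, at 11.82 against 9.06 to 10.34 (gap 0.536), and Skap1, at 10.51 against 8.80 to 9.50 (gap 0.595). Replicate 1 was low in the mean log2 level of MHC class II genes, at 12.31 against 12.59 to 12.82 (gap 0.552), and high in the share of reads in neural markers, at 1.41% against 0.761% to 1.07% (gap 0.529). Replicate 13 was high in Hspa1a, an inducible heat shock chaperone, at a log2 level of 13.41 against 9.77 to 11.43 (gap 0.542). Replicate 11 had the fewest genes detected, 25649 against 28088 to 30082 (gap 0.55). In replicate 7 the 10 highest genes took 17.1% of reads, against 7.71% to 12.1% (gap 0.529).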

How the results depend on the processing

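No paired analysis was possible because each result is a slope within a group. The 40 genes higher became 69 with no low filter, 16 with edgeR, 431 with DESeq2, 8 with a depth covariate, 166 with a neural covariate, 3 with the score from Mpo alone, 4 from Prtn3 alone, 166 from Fcnb alone, 65 from Ltf, Camp and Ngp, 0 without the 2 libraries farthest from the median score, 305 over all 19 libraries with 1 common slope, and 3 to 185 with 1 library left out. The 0 genes lower became 15 with DESeq2, 1 with the neural covariate, 6 without replicates 1 and 13, and 0 to 98 with 1 library left out. In the 11 other libraries the 17 genes higher became 158 with DESeq2, 11 with the depth covariate, 3 with the neural covariate and 0 to 17 with 1 library left out, and the 0 lower became 6 with DESeq2 and 0 to 1 with 1 library left out. The 7472 flat genes became 1150 at bounds of 0.1, 4857 with the score from Ltf, Camp and Ngp, 12131 with the rank score, whose slope has another unit, 1086 without the 2 farthest libraries and 4343 to 8016 with 1 library left out. Pearson's r of genes detected with the score, -0.36, was 0.56 without the 2 farthest libraries and -0.954 to 0.0672 with 1 library left out, where the lowest, without replicate 11, passed the test. For depth, -0.46, it was -0.6528 to -0.0023 with 1 library left out. For the mitochondrial share, -0.36, it was 0.0262 without the 2 farthest, and for the neural marker share, -0.03, it was 0.16 with the score from Fcnb alone and -0.3245 to 0.0813 with 1 library left out. The cause of these changes was not tested, except that fewer libraries enter some fits. No follower's slope changed sign in any of the 25 alternatives, but these reused the libraries that chose the followers, so the sign was largely set beforehand. With 8 libraries, slopes near the median SE of 0.0989 could not be told from 0.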
